A study of Homo sapiens with 16 samples.

Results

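The comparison described here set RNA precipitated with an anti-NQO1 antibody against RNA precipitated with control IgG, both from HepG2 cells that had been exposed to β-lapachone. It used 8 of the 16 arrays of the series, 4 for each precipitate. HepG2 is an established human hepatocarcinoma line. All 8 arrays came from cells kept for 30 min in medium with 10 µM β-lapachone, whose cytoplasmic lysate was incubated with protein-A beads coated with the mouse antibody NQO1 (A180) or with mouse IgG. The other 8 arrays of the series are the same precipitates from cells in regular medium, and they enter here only where named. Nothing in the labels says whether the 4 replicates of a precipitate came from separate cultures, so every p-value reflects only array-to-array spread, possibly of technical origin. The deposited table holds 47231 probes. Tests covered the 17335 probes whose detection p-value was under 0.05 on 4 or more of the 8 arrays.

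RNA immunoprecipitation recovers a protein with a specific antibody and asks which RNAs come with it. IgG stands for what sticks to beads or to any antibody, so an RNA bound by the protein is expected to be more abundant in the specific precipitate than in IgG. NQO1 is a cytosolic flavoenzyme that reduces quinones to hydroquinones with NADH or NADPH as electron donor. β-Lapachone is a quinone substrate of NQO1 whose hydroquinone is oxidized back, so that the enzyme cycles and consumes its cofactor. According to the title of the series, the study was about binding of RNA by NQO1 and translation of the mRNA of SERPINA1, a protease inhibitor secreted by hepatocytes. The deposited table gives manufacturer IDs and no gene names, and the gene table used here held 0 of these IDs. Levels of SERPINA1, NQO1 or liver marker mRNAs were therefore not analysed here, and results are given by probe.

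No probe passed the test for a difference between the NQO1 and the IgG precipitate after β-lapachone. Of the 17335 probes, 0 (0%) had an adjusted p under 0.05 by limma with Benjamini-Hochberg adjustment, and the smallest adjusted p was 0.752. Before adjustment 67 probes (0.387%) had p under 0.05, of which 53 lay higher and 14 lower in the NQO1 precipitate, and the smallest was 0.00560. This count was 2598 without NQO1 replicate 3, 1742 without IgG replicate 1, 11, 17 and 12 without NQO1 replicates 1, 2 and 4, 15 without IgG replicate 2, and 50 and 77 without IgG replicates 3 and 4. The mean profiles of both precipitates correlated at r = 0.916 across probes, a description in which the probes share the same 8 arrays. The median half-width of the 95% confidence interval of a difference was 1.48 in log2 units, which is 2.79-fold, with quartiles of 1.15 and 1.92. With array weights, limma called 9844 probes, but this fit gave NQO1 replicates 1 and 2 weights of 10.99 and 9.07, and IgG replicate 4 and NQO1 replicate 3 weights of 0.0557 and 0.101. Of the total weight of the IgG group, 89.6% was on replicate 3, so that the IgG mean of this fit rested mostly on a single array.

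Within each precipitate the arrays were unequal in how many probes they detected. In the IgG precipitates 17960, 13059, 16641 and 9223 probes were detected on replicates 1 to 4. In the NQO1 precipitates the numbers were 18023, 18455, 13099 and 19097. IgG replicate 4 was thus the poorest array and NQO1 replicate 4 the richest, while NQO1 replicate 3 lay beside IgG replicate 2. The means were 17168 ± 2748.6 in NQO1 and 14221 ± 3922.9 in IgG (SD, n = 4 each), a difference of 2947.8 (exact permutation test, two-sided, p = 0.171, adjusted p = 0.2 over 4 array measures). Median deposited intensity was 136 ± 19.0 in NQO1 and 107.75 ± 11.7 in IgG (SD, n = 4 each; exact permutation p = 0.0571, adjusted p = 0.2). With 4 arrays against 4 the smallest p this test can give is 0.0286. The arrays do not tell fewer cells in a lysate from less RNA per cell or less RNA recovered.

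**Figure D1:**
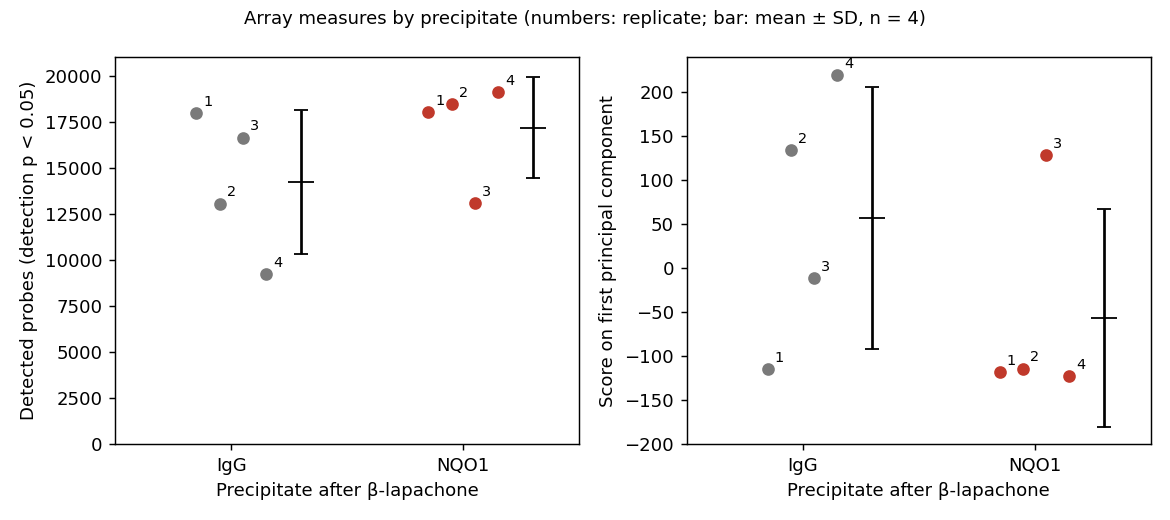
Detected probes (left) and score on the first principal component of the normalized log2 values (right) for each array after β-lapachone, by precipitate. Points are arrays numbered by replicate and bars are mean ± SD (n = 4). NQO1 replicate 3, with 13099 detected probes, lies apart from the other 3 NQO1 arrays, and the IgG arrays run from 9223 to 17960.

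On the first principal component, which held 76.2% of the variance between the 8 arrays, IgG replicates 1 to 4 scored -115, 134, -11.6 and 219. NQO1 replicates 1 to 4 scored -118, -114, 128 and -123. IgG replicate 1 therefore lay among NQO1 replicates 1, 2 and 4, and NQO1 replicate 3 lay beside IgG replicate 2. The antibody accounted for 18.7% of the first component and for 0.00187% of the second, which held 17.2% of the variance. The mean scores were -56.8 ± 123 in NQO1 and 56.8 ± 149 in IgG (SD, n = 4 each), a difference of -114 (exact permutation p = 0.2, adjusted p = 0.2). The 100 brightest probes held 10.7%, 9.91%, 15.4% and 10.9% of the intensity above the median on NQO1 replicates 1 to 4. On IgG replicates 1 to 4 they held 10.99%, 15.97%, 12.2% and 29.1%, the last on the array with the fewest detected probes.

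Arrays of different antibody could be closer to each other than arrays of the same antibody. IgG replicate 1 correlated with NQO1 replicates 1, 2 and 4 at r = 0.993, 0.995 and 0.990 across the tested probes. Between it and those arrays only 54, 16 and 154 of the 17335 probes differed at least 2-fold. Among NQO1 replicates 1, 2 and 4 themselves the correlations were 0.990 to 0.994, with 36 to 198 probes at least 2-fold apart. A single IgG precipitate thus read the same profile as 3 of the NQO1 precipitates to within their own spread. IgG replicate 2 and NQO1 replicate 3 correlated at 0.974, with 1647 probes at least 2-fold apart. Over the 16 pairs of an NQO1 with an IgG array the median r was 0.824 (0.441 to 0.995), against 0.728 (0.460 to 0.869) over the 6 pairs of IgG arrays and 0.826 (0.635 to 0.994) over the 6 pairs of NQO1 arrays. The median number of probes at least 2-fold apart was 7973.5, 9715.5 and 5637 in the same order.

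**Figure D2:**
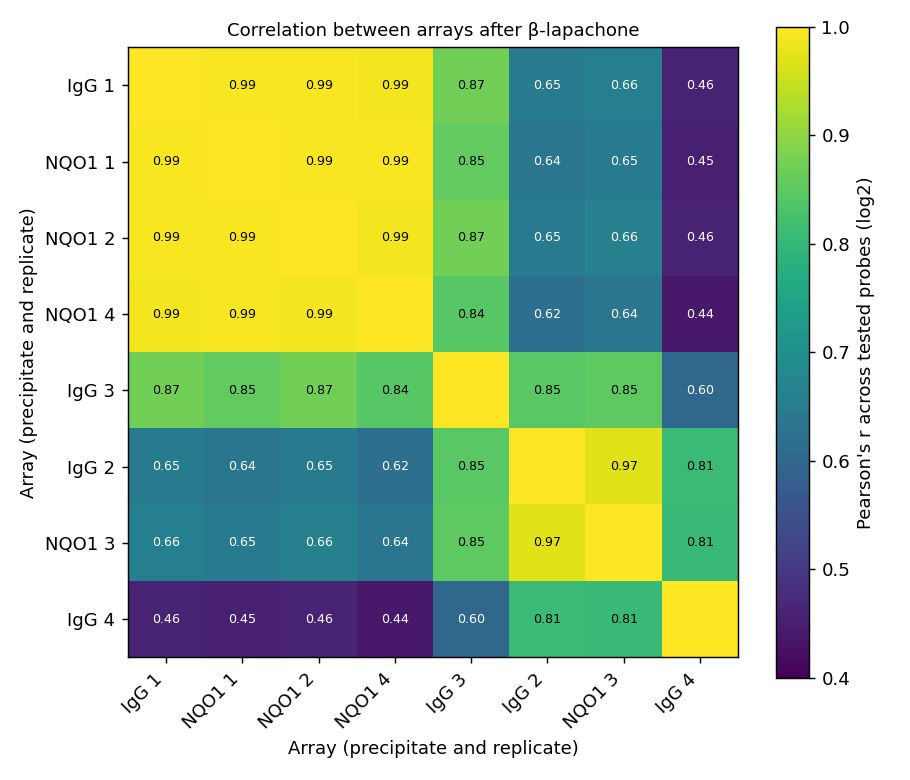
Pearson's r between each pair of the 8 arrays after β-lapachone over the 17335 tested probes (normalized log2 intensity). Arrays are ordered by similarity, and IgG replicate 1 stands with NQO1 replicates 1, 2 and 4 at 0.990 to 0.995, while NQO1 replicate 3 stands with IgG replicate 2 at 0.974.

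Differences between the group means were large although none passed the test. In the NQO1 precipitate 2909 probes (16.8%) lay at least 2-fold above IgG and 1546 (8.92%) at least 2-fold below. A 4-fold difference was reached by 537 probes upward and by 0 downward. The median difference of all tested probes was 0.08 on the log2 scale, the 5th and 95th percentiles were -1.16 and 1.74, and the extremes -1.999 and 4.20. Only 49 of the 2909 and 13 of the 1546 had an unadjusted p under 0.05 by limma. The within-group SD of a probe had a median of 1.11 in IgG and 0.71 in NQO1 on the log2 scale, and was larger in IgG for 75.6% of probes.

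The probes at least 2-fold higher in NQO1 did not separate the arrays by antibody. Chosen by this comparison, they are described here with no test. Their median normalized level was 9.34, 9.30, 5.78 and 9.42 on NQO1 replicates 1 to 4, and 9.31, 5.26, 7.63 and 4.71 on IgG replicates 1 to 4 (log2). IgG replicate 1 was as high as the high NQO1 arrays, and NQO1 replicate 3 was nearly as low as the low IgG arrays. All 2909 were detected on IgG replicate 1 and on NQO1 replicates 1, 2 and 4. On IgG replicates 2, 3 and 4 and NQO1 replicate 3, 44.5%, 77.1%, 13.0% and 50.5% were detected. The mean difference in these probes went with lower levels on IgG replicates 2, 3 and 4, in part not above background.

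The probes at least 2-fold lower in NQO1 followed the same arrays the other way. Their median normalized level was 5.96, 6.04, 8.49 and 5.96 on NQO1 replicates 1 to 4, and 6.14, 8.56, 7.14 and 9.82 on IgG replicates 1 to 4 (log2). Again IgG replicate 1 stood with NQO1 replicates 1, 2 and 4, and NQO1 replicate 3 stood with IgG replicate 2. In the deposited intensities, before any scaling, 1313 of these 1546 probes (84.9%) were higher in NQO1 than in IgG on the mean of log2 values. Their median deposited intensity was 181.15, 228.25, 208.45 and 160.7 on IgG replicates 1 to 4, and 174.3, 253.6, 293.2 and 210.5 on NQO1 replicates 1 to 4. The lowest was on IgG replicate 4, the array with the highest normalized level. Of the 2909 probes at least 2-fold higher, 0 changed direction in the deposited intensities, where 98.3% of all tested probes were higher in NQO1. After background correction and median centring, 238 of the 1546 were higher in NQO1, so most kept the lower direction there, whatever its size. The lower direction thus held relative to the other probes of each array. For most of these probes it did not hold in deposited intensity, where nearly all tested probes were higher in NQO1.

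The balance of higher and lower probes depended on single arrays and on the scaling. Without IgG replicate 4, 1342 probes were at least 2-fold higher and 76 lower. Without IgG replicate 1 the numbers were 4380 and 3292, and without NQO1 replicate 3 they were 4359 and 3332. Omitting IgG replicate 2 or 3, or NQO1 replicate 1, 2 or 4, left 2162 to 3867 higher, and the lower probes numbered 954, 2521, 902, 945 and 828 in that order. Median centring in place of quantile normalization gave 5711 higher and 4 lower, and put the tested probes' median at 0.63, so that these counts are not relative to the same zero. Dividing by the median absolute deviation as well gave 1140 higher and 4248 lower, which turned the balance. With the number of detected probes as a covariate, chosen after seeing the data, 147 were higher and 125 lower, and on the 5 arrays with over 16000 detected probes 1494 and 79. In none of these fits did a probe pass limma's test.

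**Figure D3:**
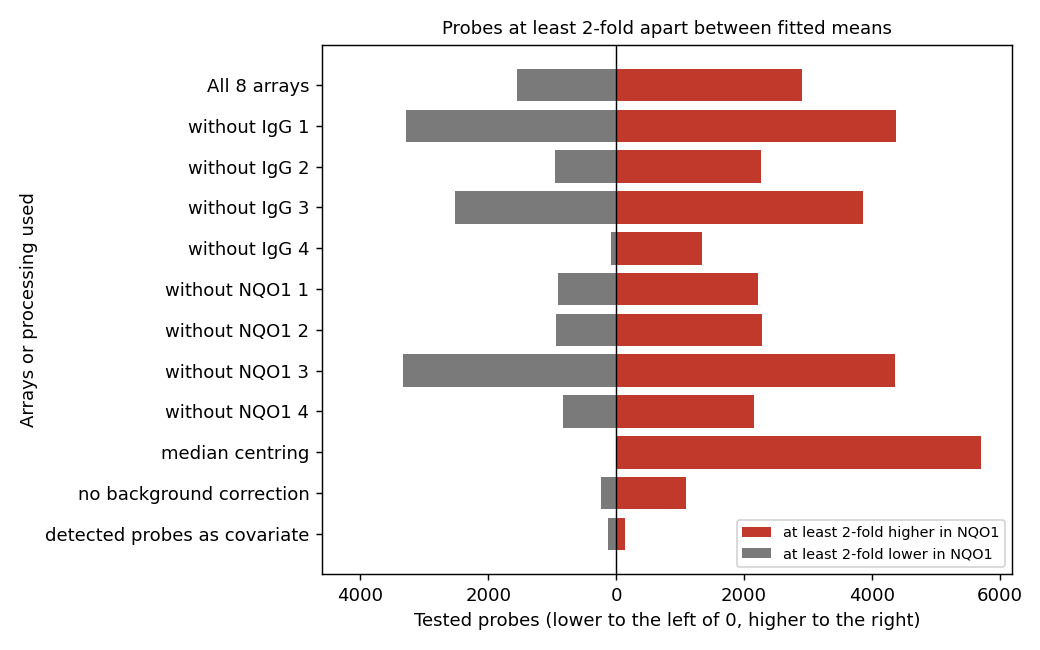
Tested probes whose fitted NQO1 mean lay at least 2-fold above (right of 0) or below (left of 0) the IgG mean, with all 8 arrays, without each array in turn, and under 3 other settings. All 8 arrays gave 2909 higher and 1546 lower, and without IgG replicate 4 there were 1342 and 76.

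Large differences between the means sat at intermediate levels of intensity, and so did the largest errors. Sorted by mean normalized level into 5 classes of 3467 probes, 3.95% of the dimmest class (4.78 to 5.65, log2) lay at least 2-fold apart either way, against 25.7% of all tested probes. The share was 27.3%, 41.3% and 37.4% in the next classes, and 18.5% in the brightest (9.56 to 14.51). The median SE of the difference had the same order, at 0.49, 0.70, 0.82, 0.77 and 0.58 from the dimmest to the brightest class. The 110 probes whose groups did not overlap were instead most frequent in the dimmest class, with 45, 24, 9, 14 and 18 in the same order. The brightest RNAs were shared by both precipitates. Of the 100 probes with the highest mean in NQO1 and the 100 in IgG, 71 were the same. Among the 129 probes in either list 9 lay at least 2-fold higher in NQO1 and 0 lower, with differences from -0.48 to 1.25 and no unadjusted p below 0.187 by limma.

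**Figure D4:**
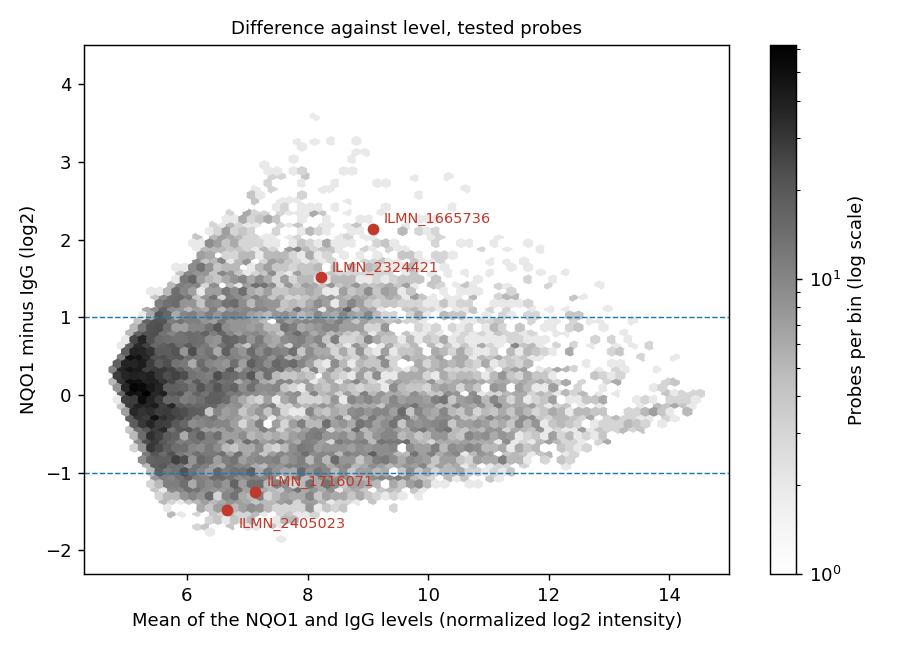
Difference between the NQO1 and IgG means (log2, vertical) against the mean of both levels (normalized log2 intensity, horizontal) for the 17335 tested probes, shaded by the number of probes per bin on a log scale. Dashed lines mark 2-fold, red points are the 4 named probes, and probes more than 2-fold apart are most frequent between the dimmest and the brightest levels.

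Detection ran with the arrays too. Of the 17335 tested probes, 6935 were detected on all 8 arrays, 3255 on all but IgG replicate 4, and 2210 on all but IgG replicates 2 and 4 and NQO1 replicate 3. A further 1682 were detected only on IgG replicate 1 and NQO1 replicates 1, 2 and 4. Among the 6935 probes detected everywhere, 344 (4.96%) lay at least 2-fold higher in NQO1 and 1204 (17.4%) lower, with a median difference of -0.45. Among the other 10400, 2565 (24.7%) lay higher and 342 (3.29%) lower, with a median of 0.40. The latter could pass the filter through the NQO1 arrays, on which more probes were detected, so this split is a description from which no direction is read.

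An RNA present in one precipitate and absent from the other was rare. In the whole table, 19 probes had detection on each of the 4 NQO1 arrays and on no IgG array, and 5 on all 4 IgG arrays and on no NQO1 array, where 11070 were detected on all 4 NQO1 and 7222 on all 4 IgG arrays. The 19 were dim, with mean levels of 5.21 to 5.61 (log2) in NQO1. Since IgG has only a bound for them, the NQO1 mean was set against a floor, taken on each IgG array as the level of its dimmest detected probe or the probe's own level if that was greater, and for 0 of the 19 did it exceed that floor. For the 5 in the IgG precipitate the mean was 5.91 to 6.88 and lay at least 1.71-fold to at least 3.33-fold above NQO1. Both sets were picked by detection in a single group, which fixes their direction, so these bounds are a description with no test. The floors and bounds are normalized levels, relative to the other probes of each array, and do not carry over to deposited intensity. The floors were taken array by array, so the 19 and the 5 are not compared with each other.

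The groups did not overlap for 110 probes (0.635% of those tested), 49 with all NQO1 arrays above all IgG arrays (0.283%) and 61 with all below (0.352%). The gaps between the nearest arrays were narrow. They ran up to 0.39 on the log2 scale for the higher and up to 0.44 for the lower probes, with medians of 0.07 each. No probe kept a 2-fold distance between every NQO1 and every IgG array. Group differences of the 49 ran from 0.14 to 2.04 with a median of 0.72, and those of the 61 from -1.83 to -0.14 with a median of -0.82. These counts moved widely with the arrays and the scaling. They were 1358 higher and 1674 lower without NQO1 replicate 3, 588 and 265 without IgG replicate 1, and 67 to 135 and 74 to 206 when 1 of the other 6 arrays was left out. With 1 array fewer to overlap, groups separate more readily, so these counts do not compare evenly with those from all arrays. Median centring gave 314 and 8, and dividing by the median absolute deviation as well gave 28 and 92. In the deposited intensities the 49 were again all higher in NQO1 on the mean of log2 values, but so were all 61 lower probes.

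The 20 probes with the smallest p in each direction were picked by this comparison and are described with no further test. The 20 with higher values lay 1.21 to 2.41 above IgG (log2, SE 0.46 to 0.95, unadjusted p 0.00560 to 0.0315 by limma). None of them was detected on all 8 arrays, where 6935 of all tested probes were. They were detected on a median of 1 of the 4 IgG arrays and on a median of 4 NQO1 arrays. Such probes could pass the filter through the NQO1 arrays, where they are high, so no result is read from this pattern. The leading 20 in the lower direction had differences of -1.83 to -0.88 (SE 0.38 to 0.75, unadjusted p 0.0114 to 0.0568 by limma). Of these, 1 was detected on all 8 arrays, and the median was 4 IgG and 3 NQO1 arrays. Such probes could pass the filter through the IgG arrays, so no result is read from their detection either. All 20 were higher in NQO1 in the deposited intensities, but so were 98.3% of all tested probes, so this does not set the 20 apart.

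The 4 probes given by ID are the pair with the smallest p in each direction among the probes detected on all 8 arrays. They are values, not calls. ILMN_2324421 read 9.75, 8.60, 7.67 and 9.88 on NQO1 replicates 1 to 4, and 8.59, 7.47, 6.40 and 7.38 on IgG replicates 1 to 4 (normalized log2 intensity). The groups overlapped, because NQO1 replicate 3 lay below IgG replicate 1. The means were 8.98 ± 1.04 and 7.46 ± 0.90 (SD, n = 4 each), a log2 difference of 1.52, with SE 0.66 and an adjusted p of 0.752 by limma. Its deposited intensities were 1145.5, 887.8, 194.1 and 1452.2 in NQO1 and 564, 141.7, 159.3 and 99.9 in IgG, so 3 of the NQO1 arrays were brighter than every IgG array.

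ILMN_1665736 was brighter and spread wider. It read 10.88, 10.58, 7.88 and 11.28 on NQO1 replicates 1 to 4, and 10.04, 8.04, 6.15 and 7.82 on IgG replicates 1 to 4 (log2). NQO1 replicate 3 lay below 2 of the IgG arrays, and the other 3 NQO1 arrays lay above all 4. The means were 10.16 ± 1.54 and 8.01 ± 1.60 (SD, n = 4 each), a log2 difference of 2.14, with SE 0.97 and an adjusted p of 0.752 by limma.

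ILMN_1716071 had lower normalized values in NQO1. It read 6.24, 6.50, 7.08 and 6.23 on NQO1 replicates 1 to 4, and 6.53, 7.79, 7.78 and 8.95 on IgG replicates 1 to 4 (log2). The groups overlapped at NQO1 replicate 3 and IgG replicate 1. The means were 6.51 ± 0.40 and 7.76 ± 0.99 (SD, n = 4 each), a log2 difference of -1.25, with SE 0.55 and an adjusted p of 0.752 by limma. The highest normalized value, on IgG replicate 4, came from the lowest deposited intensity, 114.3, and the deposited intensities of the NQO1 arrays, 165.2 to 306.6, spanned those of IgG replicates 1 and 3. Without IgG replicate 4 the difference was -0.85, and with median centring it was -0.09.

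ILMN_2405023 behaved alike. It read 5.29, 5.85, 6.70 and 5.88 on NQO1 replicates 1 to 4, and 5.97, 7.90, 6.74 and 9.05 on IgG replicates 1 to 4 (log2). NQO1 replicate 3 lay above IgG replicate 1, so the groups overlapped. The means were 5.93 ± 0.58 and 7.41 ± 1.35 (SD, n = 4 each), a log2 difference of -1.48, with SE 0.69 and an adjusted p of 0.752 by limma. On IgG replicate 4 the deposited intensity was 117.3, again the lowest of the 8, and the difference was -0.94 without that array and -0.35 with median centring.

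**Figure D5:**
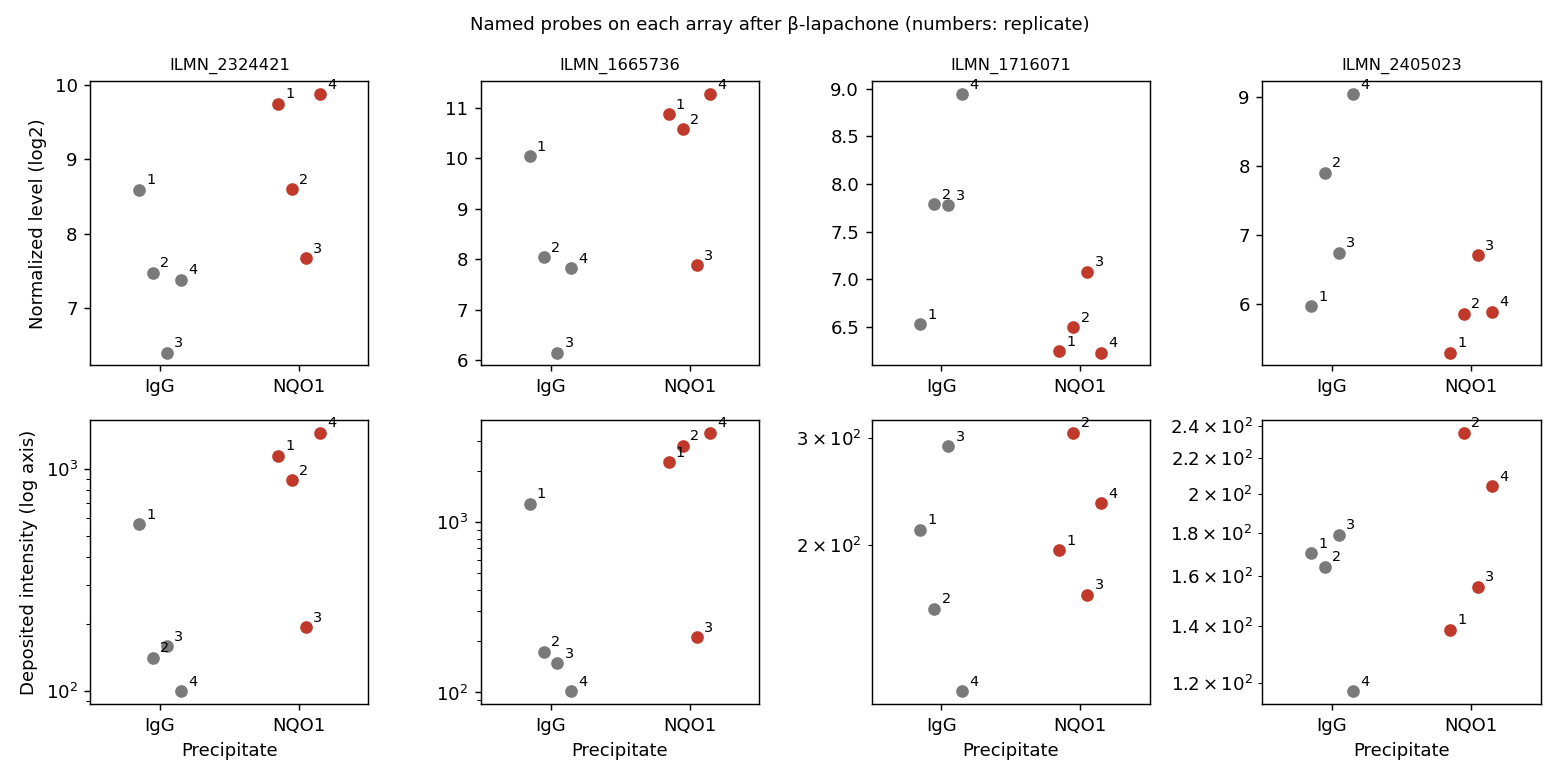
Normalized log2 level (top) and deposited intensity on a log axis (bottom) of the 4 probes given by ID, for each array after β-lapachone. Points are arrays numbered by replicate. In ILMN_1716071 and ILMN_2405023, IgG replicate 4 is the highest array after normalization and the lowest in deposited intensity.

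The same antibody contrast in control medium, from arrays that share no sample with these, is set beside them here. With all 16 arrays normalized together, 2803 of the 17335 probes (16.2%) lay at least 2-fold higher and 1485 (8.57%) lower in NQO1 after β-lapachone. In control medium 145 (0.836%) lay higher and 544 (3.14%) lower. The 17335 probes were chosen by detection on the β-lapachone arrays alone, so some may lie at background in control medium. The shares of the media are therefore not like for like. Of the higher probes 46 were shared, which is 1.64% of those after β-lapachone and 31.7% of those in control medium, where 16.2% of all tested probes lay higher after β-lapachone. Of the 544 lower probes in control medium 8 (1.47%) were also lower after β-lapachone, or 0.539% of the lower probes there, and 137 (25.2%) were at least 2-fold higher. No test of these overlaps was made. The difference had the same sign in both media for 38.6% of probes, and across probes the differences correlated at r = -0.204, a description without a test. The test of the difference between media called 0 probes (0%), with 27 at an unadjusted p under 0.05 and a smallest adjusted p of 0.778 by limma.

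The probes without overlap after β-lapachone were also followed in control medium, with no test. Of the 49 higher ones, 26 (53.1%) were higher in NQO1 in control medium, where 40.4% of all tested probes were, and their median difference there was 0.01, against -0.12 for all tested probes. Of the 61 lower ones, 36 (59.0%) were lower, where 59.6% of all were. ILMN_2324421 read 8.40 ± 1.55 in NQO1 and 7.36 ± 1.75 in IgG in control medium (log2, SD, n = 4 each), and ILMN_1665736 read 8.75 ± 2.30 and 7.69 ± 2.34 (n = 4 each). ILMN_1716071 read 7.19 ± 1.44 in NQO1 and 6.98 ± 0.76 in IgG, and ILMN_2405023 read 5.96 ± 0.84 and 6.29 ± 1.24 (n = 4 each). ILMN_2405023 was not detected on control medium IgG replicate 3 and NQO1 replicate 4, so both of its means include background values. These control medium values come from the normalization of all 16 arrays and do not compare directly with those given above. In all 4 the difference in control medium was smaller than the SD of each group.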

How the data were processed

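Precipitate RNA was primed with oligo-dT, amplified with biotin and read on single-colour Illumina arrays, per the labels' protocols. The authors deposited linear intensity values named as not normalized. Beside each stands that array's detection p-value, per the file headers. The submitters' processing notes list GenomeStudio 2011.1, with no settings. Arrays were assigned to groups by title. The 8 arrays were processed with neqc (limma 3.58.1, R 4.3.3), which fits normexp background from the detection p-values, adds an offset (16 here), quantile normalizes and takes log2. Quantile normalization gives every array the same distribution, so that a level is relative to the other probes of its array. A group mean for each precipitate was fitted by lmFit and eBayes, with Benjamini-Hochberg adjustment over the 17335 tested probes. The difference between media was fitted on 16 arrays. The code of the fit was run on simulated data with independent noise, smaller than the median within-group SD of these arrays. That run therefore says nothing about the power of the test in these data. Probes given by ID had the smallest 2 p-values per direction among those detected on all 8 arrays. Planned gene lists were not analysed here, since no table paired probes with genes. Members, probe rules and alternatives were chosen with earlier results of these data known, and other fits on fewer arrays or with a covariate after seeing the data.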

Additional observations from a re-analysis of the deposited data

Results flagged for a closer look

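NQO1 replicate 3 after β-lapachone stood apart from the other NQO1 arrays on both leading components. It scored 128 on the first principal component, where the closest NQO1 array scored -114, and -67.1 on the second, where the closest scored 16.2. In each case the distance exceeded the 95% critical value of Dixon's test for 4 values. Dixon's test was applied to 18 sets of 4 values (5 array measures and 4 named probes, in each precipitate) and gave these 2. By chance 0.9 would be expected at this level. Both flags are the same array and the sets are not independent, so nothing is read from the excess. IgG replicate 2 scored 134 and -68.0 on the same components.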

How the results depend on the processing

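The count of calls by limma stayed at 0 with median centring, with added scaling by the median absolute deviation, without background correction, without the detection filter, with both stricter filters, with all 16 arrays, with a variance trend, with the replicate block and without each array (0 to 0 calls), and also on the 5 arrays with over 16000 detected probes and with the covariate. Array weights gave 9844. At least 2-fold higher were 5711 probes and lower 4 with median centring, 1140 and 4248 with added scaling, 1097 and 242 without background correction, 1494 and 79 on the 5 arrays, and 147 and 125 with the covariate. On probes detected on all 8 arrays 344 were higher. Leaving out 1 array gave 1342 to 4380 higher and 76 to 3332 lower. Apart from the smaller number of arrays or probes in some of them, the cause was not tested. Detected probes exceeded IgG by 1281.8 to 4304.2 without 1 array. All 4 named probes kept their direction under every setting, and passed the threshold with array weights only. The replicate block gave 0 calls by limma and 143 probes with p under 0.05 before adjustment, against 67 without it. The labels state no design, so the main fit did not treat replicate numbers as pairs. Deviations of the same-numbered arrays correlated at 0.889, -0.782, -0.358 and -0.484 for replicates 1 to 4. Those of IgG replicate 1 also correlated at 0.879 and 0.888 with NQO1 replicates 2 and 4, so these values cannot decide on pairing. The difference between media stayed at 0 calls with median centring, without background correction, with array weights and with the replicate block. Its smallest adjusted p by limma was 0.0542 with array weights, near the threshold, and 0.570 to 0.794 under the other settings. Signal over background limits IgG replicate 4 most, where 46.6% of the tested probes were detected, against 95.4% on IgG replicate 1.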
